A study of Rattus norvegicus with 12 samples.

Results

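The hearts of rats with a myocardial infarction given vehicle (MI) were compared with those of sham-operated rats (Sham) across all genes. Of the 12 sequenced hearts, 8 enter this comparison, 4 of each group, picked by the group that the sample labels name. The other 4 came from infarcted rats given urolithin A, and here they only add to the estimate of the spread between animals. The rats were male Wistar Han animals, 7 weeks old at surgery. MI rats had the descending coronary artery tied permanently, Sham rats had the chest opened without the ligature, and both groups then received the vehicle of the urolithin A arm, carboxymethylcellulose, for 8 weeks. No allele is named for either group. Both were operated under medetomidine and ketamine with atipamezole for waking, and isoflurane, buprenorphine and potassium chloride were given before the hearts were taken.

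The model sets limits on what the values stand for. Infarcted rats with a small loss of function on the first echocardiogram had been left out of the study, so the MI group stands for infarcts that passed this choice. RNA came from sections of a formalin-fixed, paraffin-embedded block of the middle left ventricle, with atria and the rest of the heart removed and with no separation of scar from surviving muscle. Each heart gave 1 library. In such bulk RNA, fewer cells of a type and less RNA per cell cannot be told apart.

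In a healed infarct, dead muscle is replaced by a collagenous scar that fibroblasts deposit and crosslink, and macrophages clear debris and stay on as residents. The surviving cardiomyocytes live mainly on fatty acids, burn them in their mitochondria and spend the energy on cycling calcium and sliding myosin along actin. Under load, rodent cardiomyocytes are known to switch from the fast myosin heavy chain Myh6 to the slow Myh7 and to secrete natriuretic peptides.

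Reads assigned to genes ran from 6228706 to 8958828 in Sham and from 6829591 to 12743184 in MI libraries, so the MI libraries were on the whole deeper. Mitochondrially encoded genes took 54.0% to 58.6% of them in Sham and 50.2% to 57.6% in MI hearts (exact permutation p = 0.143, two-sided). Of the reads assigned to a gene, to no annotated feature or ambiguously, those on genes made up 52.1% ± 1.32 (SD, n = 4) in Sham and 48.8% ± 0.917 in MI, without overlap (exact permutation p = 0.0286, two-sided, the smallest that 4 against 4 rats allow). Its part in the differences below was not tested. The defining markers of heart muscle were present in every library. The summed level of the 11 cardiomyocyte markers tested was 49512 to 56343 CPM (reads scaled to a common library size with edgeR's normalization factors) in Sham and 35061 to 41294 in MI hearts. Per-animal values below are CPM, given in the order of rats 12, 17, 32 and 38 for Sham and rats 36, 57, 61 and 89 for MI. Changes are log2 fold changes of MI over Sham with their standard error (SE). A gene is called at an adjusted p under 0.05 in edgeR's quasi-likelihood test over all 18182 genes tested, and "rose" and "fell" are used for called genes alone.

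The transcriptome of the infarcted heart moved in both directions, but not by the same amounts. Of the genes tested 11.4% were called, 5.82% higher and 5.53% lower. Among the 1058 called higher the median log2 fold change was 0.82, and 400 of them (37.8%) rose by more than 1. The 1006 called lower had a median of -0.48, and 46 (4.57%) went below -1. A log2 change beyond 2 was seen for 115 rising and 6 falling genes. The median over all genes tested was 0.03. Among the 11986 genes with an average log2 CPM of at least 1, 16.2% were called, and 20.8% had MI and Sham rats that did not overlap, 10.1% with MI above and 10.7% with MI below. With each rat left out in turn, 590 of the rising and 536 of the falling genes were called in all 8 fits.

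**Figure D1:**
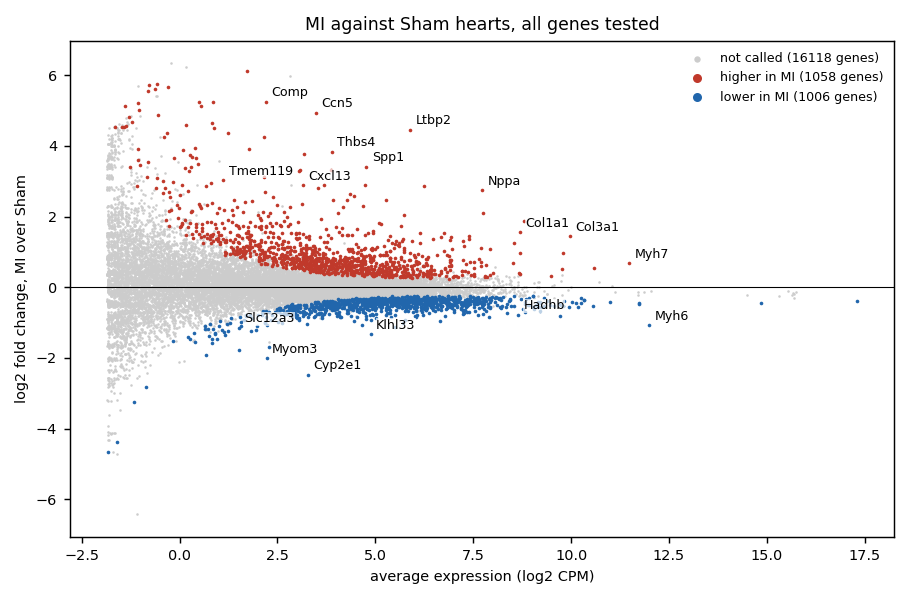
Log2 fold change of MI over Sham against average expression in log2 CPM for each gene tested, with called genes in red (higher) or blue (lower) and others in grey. Called rises reach far beyond a log2 fold change of 2, while nearly all called falls lie between 0 and -1.

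Among the 15 largest rises of called genes with an average log2 CPM above 1 and no overlap were the matrix genes Comp, Ccn5, Ltbp2, Thbs4, Col11a1, Chad and Col8a2. Ltbp2, a latent TGF-beta binding protein of elastic fibres, stood at 3.14, 3.61, 4.54 and 4.17 CPM in the Sham hearts and at 83.0, 84.8, 98.1 and 74.0 in the MI hearts. The 4 MI animals were close together and far above all Sham animals, and this gene had the smallest adjusted p of all genes tested (log2 fold change 4.46 ± 0.19 (SE), adjusted p = 4.12e-12). Thbs4, a thrombospondin, was measured at 0.878, 1.15, 2.86 and 0.715 CPM in Sham and 13.6, 17.2, 24.2 and 20.8 in MI, and again the groups did not overlap (3.84 ± 0.33 (SE), adjusted p = 2.79e-07). The matricellular protein Ccn5 went from 0.376, 0.144, 1.18 and 0.596 CPM to 12.6, 14.4, 22.3 and 19.2 CPM. Every MI rat lay at least several-fold above the highest Sham rat for Ccn5, although single Sham values rest on few reads.

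Several of the other top rises were not structural matrix genes. Clec2dl1, a C-type lectin-like gene, had the fourth largest of them, from 0, 0.144, 0 and 0.358 to 2.34, 0.784, 2.91 and 5.54 CPM on few reads in Sham (4.35 ± 0.86 (SE), adjusted p = 0.00207). RGD1565462 read 1.76, 1.59, 1.51 and 1.07 against 26.5, 6.27, 21.1 and 2.93 CPM, with wide differences between the MI rats (3.29 ± 0.60 (SE), adjusted p = 0.000946). Bnc2, a zinc finger protein, read 0.878, 0.866, 0.505 and 0.238 CPM in Sham and 5.19, 4.39, 6.43 and 5.70 CPM in MI, without overlap (3.12 ± 0.34 (SE), adjusted p = 5.45e-06). The chemokine Cxcl13, which attracts B cells, read 1.76, 2.02, 1.51 and 0.715 against 8.63, 4.39, 6.64 and 22.9 CPM, with rat 89 far above the other MI rats and no overlap (2.89 ± 0.69 (SE), adjusted p = 0.00798). Tmem119, Spp1, Sfrp2 and the complement gene C4a rose too, with log2 fold changes of 2.88 to 3.41.

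Of the 8 matrix lists, 88 of 179 genes tested rose (49.2%, against 5.82% of all genes) and 5 fell (2.79%), and their median was 0.65 on the log2 scale. The 5 that fell were the muscle laminin receptor Itga7, the laminin chain Lamb2 and the proteases Mmp15, Adam19 and Adamts12, and this count was 3 without MI rat 57, Sham rat 32 or Sham rat 38, when Mmp15 and Adamts12 were not called (adjusted p from 0.0533 to 0.114). Adamts12 also lost its call without MI rats 61 or 89 or Sham rat 12 (0.0521 to 0.0860).

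Collagen genes rose to different extents. Col1a1, a chain of type I collagen, was found at 144, 201, 175 and 189 CPM in Sham and at 553, 358, 512 and 669 CPM in MI, with the lowest MI value in rat 57 and no overlap (1.56 ± 0.20 (SE), adjusted p = 4.24e-05). Col3a1 read 374, 495, 472 and 482 CPM against 1258, 948, 1215 and 1561 CPM, in the same order of rats (1.45 ± 0.15 (SE), adjusted p = 3.04e-06). In all, 9 of 11 fibrillar collagens rose, with a median of 0.92, Col5a1 and Col1a2 among them at 0.85 and 1.26. DESeq2 called 7, and 7 or 8 were called by edgeR with 1 rat left out. Col2a1 is among the 9, with reads in 1 MI rat, and so is Col5a3, which was called only without MI rat 36 in those fits (adjusted p otherwise up to 0.113). Col24a1 (-0.24, adjusted p = 0.461) and Col11a2 (0.17, adjusted p = 0.834) were not called.

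Among non-fibrillar collagens 11 of 20 rose (median 0.49). The steepest were the chains of type VIII collagen, a network-forming collagen of vessels and valves. Col8a1 lay at 4.52, 5.20, 3.87 and 5.25 CPM in Sham and 23.0, 22.6, 31.7 and 28.7 in MI (2.48 ± 0.17 (SE), adjusted p = 2.45e-08), and Col8a2 changed by 2.90 ± 0.22. The fibril-associated Col12a1 followed, with 6.52, 6.64, 7.24 and 7.51 against 32.6, 21.5, 34.7 and 47.4 CPM (2.30 ± 0.37 (SE), adjusted p = 0.000307), and Col14a1 at 1.04. The groups did not overlap for any of these 4. The basement membrane chains Col4a1 and Col4a2, in contrast, differed by 0.27 ± 0.09 and 0.24 ± 0.09 and were not called (adjusted p = 0.0623 and 0.112), although every MI value exceeded every Sham value.

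Enzymes that process collagen rose in 12 of 27 cases. Plod2, the lysyl hydroxylase that prepares collagen telopeptides for crosslinks, read 23.7, 21.6, 24.4 and 25.3 CPM in Sham and 58.6, 70.9, 53.2 and 65.0 in MI (1.38 ± 0.10 (SE), adjusted p = 2.45e-08). Of the lysyl oxidases, Loxl1 changed by 1.64 ± 0.16 and Loxl2 by 1.17 ± 0.10, with MI above Sham in every rat. The prolyl hydroxylase subunit P4ha1 was not called (0.24 ± 0.31, adjusted p = 0.716): its MI values were 33.3, 101, 35.9 and 43.4 CPM, so rat 57 alone lay above the Sham range of 35.2 to 65.5. The collagen chaperone Serpinh1 was not called either (0.21 ± 0.13), and here too rat 57 was the highest animal.

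Matricellular and scar genes rose in 18 of 27 cases (median 1.55, the highest of all gene lists). Postn, periostin of activated fibroblasts, read 2.63, 6.21, 3.53 and 4.89 CPM in Sham and 27.9, 14.4, 27.7 and 36.7 CPM in MI, and the lowest MI rat, 57, lay above the highest Sham rat. Ccn2, connective tissue growth factor, read 35.0, 42.3, 53.0 and 52.0 against 78.1, 205, 96.7 and 97.7 CPM, with rat 57 highest (1.38 ± 0.22 (SE), adjusted p = 0.000344). Cilp, a cartilage intermediate layer protein, changed by 2.10 ± 0.19 and the microfibril protein Mfap4 by 1.16 ± 0.11. Thbs2 (0.32 ± 0.14, adjusted p = 0.158) and Sparcl1 (0.10 ± 0.11, adjusted p = 0.654) were not called.

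Elastic fibre genes rose in 10 of 16 cases (median 0.72). Eln, elastin itself, was at 65.6, 92.7, 88.9 and 88.3 CPM in Sham and 252, 181, 236 and 241 CPM in MI (1.44 ± 0.15 (SE), adjusted p = 3.04e-06), and Fbn1 and Fbln1 changed by 1.36 and 1.41. The MI rats lay above every Sham rat for these 3 genes. Fbln5, an elastin-binding fibulin, was not called (0.36 ± 0.12, adjusted p = 0.0647).

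Proteoglycans rose in 13 of 23 cases (median 0.75). Bgn, biglycan, had 143, 173, 166 and 168 CPM in Sham and 569, 441, 705 and 656 CPM in MI (1.87 ± 0.13 (SE), adjusted p = 2.99e-08). Vcan, the large proteoglycan versican, changed by 1.24 ± 0.14 and Prelp by 1.10 ± 0.10. Dcn, decorin, was not called, with 286, 353, 294 and 303 CPM in Sham and 302, 296, 385 and 428 CPM in MI (0.19 ± 0.11, adjusted p = 0.328), so these small leucine-rich proteoglycans of the collagen fibril did not all move by the same amount.

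Integrins and basement membrane genes were mostly not called (4 of 26 higher, 2 lower, 23.1% called against 11.4% of all genes, median 0.11). The count of rises was 2 without Sham rats 12 or 32 or MI rats 57 or 61. Itga11, a collagen receptor of fibroblasts, rose from 2.63, 2.16, 2.36 and 2.62 to 8.55, 6.27, 9.76 and 8.06 CPM (1.74 ± 0.21 (SE), adjusted p = 1.39e-05), whereas the muscle integrin Itga7 fell from 112, 111, 127 and 129 to 88.6, 76.2, 76.5 and 85.4 CPM (-0.55 ± 0.09 (SE), adjusted p = 0.000461). The groups were fully apart for both, in opposite directions. Of proteases and inhibitors 11 of 29 rose and 3 fell, 1 without MI rat 57, Sham rat 32 or Sham rat 38. Timp1, an inhibitor of metalloproteinases, read 1.63, 2.598, 3.53 and 3.81 CPM in Sham and 8.48, 12.4, 12.5 and 9.04 in MI (1.86 ± 0.24 (SE), adjusted p = 4.01e-05), Mmp2 changed by 0.70 ± 0.12 and the protease inhibitor Serpine2 by 1.10 ± 0.14. Mmp3 and Mmp13 gave no read in any Sham heart, so their MI levels were at least 8.10-fold and 8.66-fold higher than a floor of 3 reads over the Sham group. The reads of Mmp3 came from rats 61 (3) and 89 (37), and those of Mmp13 from rats 36 (31), 61 (3) and 89 (12).

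**Figure D2:**
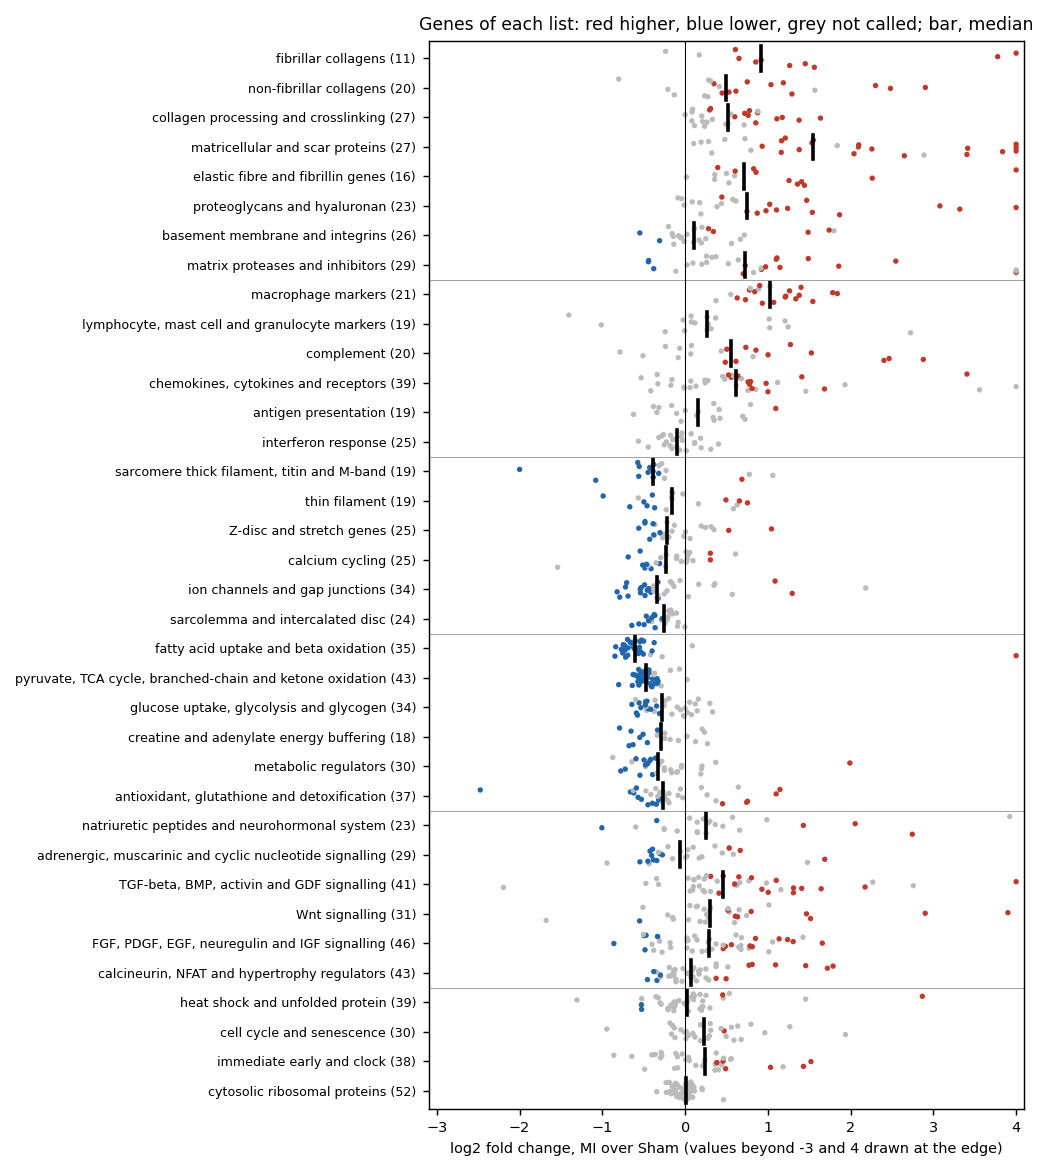
Log2 fold change of MI over Sham for each gene of the 36 gene lists (genes tested in brackets), in red if called higher, blue if called lower and grey if not called, with a black bar at the list's median. Macrophage, TGF-beta and matrix lists other than basement membrane and integrins lie mostly to the right of 0, energy metabolism and sarcolemma lists mostly to the left, and ribosomal and interferon lists straddle it.

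A group of cartilage genes was detected in the infarcted hearts, and over the MI rats it ranged more widely than any other of the 52 lists. Of 10 markers 7 rose, and 4 did without MI rat 36, Sham rat 12 or Sham rat 38. The cartilage markers had a mean log2 difference from the Sham mean of 3.41, 0.82, 1.60 and 1.56 in MI rats 36, 57, 61 and 89. Comp, cartilage oligomeric matrix protein, gave 1, 1, 1 and 2 reads in the Sham libraries and 155, 27, 42 and 88 reads in the MI libraries. All MI hearts thus held Comp transcripts above the Sham level. Chad, chondroadherin, was at 1.25, 0.866, 1.18 and 1.07 CPM in Sham and 18.3, 5.96, 10.2 and 8.55 CPM in MI, again in every MI rat and most in rat 36 (3.32 ± 0.34 (SE), adjusted p = 2.31e-06).

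Transcripts of mature cartilage were found mainly in rat 36. Col2a1, type II collagen, gave 405 reads in rat 36, none in the other 3 MI libraries and 3 in the Sham libraries, all of the latter in rat 12. Acan, the aggrecan core protein, gave 126 reads in rat 36 against 0, 6 and 16 in rats 57, 61 and 89 and 2 over all Sham libraries. Hapln1, which links aggrecan to hyaluronan, gave 33, 2, 4 and 6 reads in the MI and 3 over the Sham libraries. The calls of these 3 genes rest on rat 36. Without it Col2a1 had too few reads to be tested, and Acan and Hapln1 were no longer called (adjusted p = 0.138 and 0.264). The calls also ended without any 1 Sham rat for Col2a1 (adjusted p from 0.0720 to 0.0838), without Sham rats 12, 17 or 38 for Acan (0.0539 to 0.0647) and without Sham rats 12, 32 or 38 for Hapln1 (0.0698 to 0.115). The regulator of chondrogenesis Sox9 did not follow that pattern: it had 19.9, 29.6, 29.5 and 22.1 CPM in MI, lowest in rat 36, against 15.9, 14.0, 15.5 and 13.2 in Sham (0.77 ± 0.13 (SE), adjusted p = 0.000591). The runt-domain factors Runx1 and Runx2 rose evenly, Runx1 to 9.65, 9.25, 8.30 and 8.64 CPM from 2.26, 1.59, 4.21 and 2.50 and Runx2 to 9.65, 13.01, 11.7 and 12.5 from 4.14, 4.62, 5.05 and 3.34, with no overlap in either. Comp, Chad, Runx1, Runx2 and Sox9 were called in every fit with 1 rat left out.

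**Figure D3:**
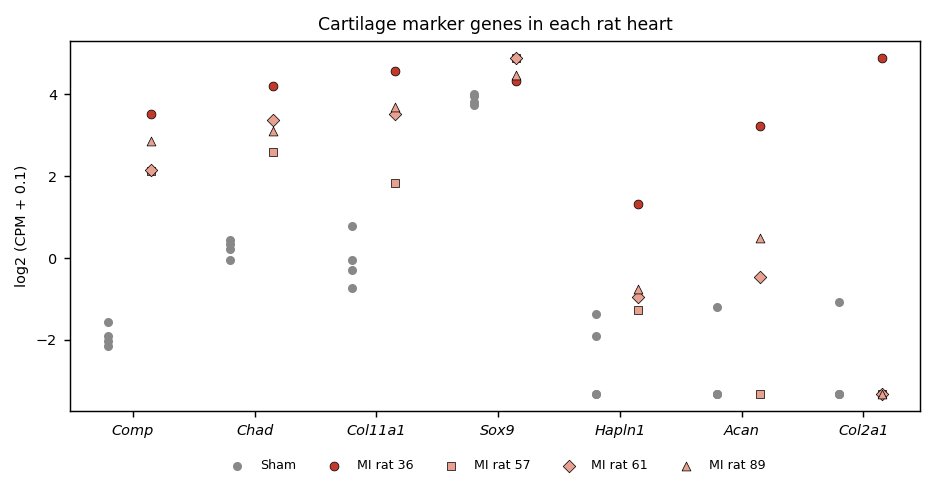
Level of 7 cartilage marker genes, as log2 of CPM plus 0.1, in each Sham heart (grey) and each MI heart (symbols by rat). Comp, Chad and Col11a1 lie above Sham in all 4 MI rats, while Col2a1 and Acan are highest in rat 36. In rats 57, 61 and 89 Col2a1 gave no reads and Acan gave 0, 6 and 16.

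Immune genes rose in 40 of 143 cases (28.0%, against 5.82% of all genes), and none was called lower by edgeR or DESeq2 (2 at an unadjusted p under 0.05, and 1 called without MI rat 36 or Sham rat 12). All but Ctss of the rises lay among macrophage, complement and chemokine genes. Macrophage markers rose in 16 of 21 cases (median 1.03). The mannose receptor Mrc1 stood at 12.2, 14.6, 11.8 and 17.6 CPM in Sham and 32.2, 53.0, 43.6 and 37.5 in MI (1.54 ± 0.17 (SE), adjusted p = 5.45e-06), the scavenger receptor Cd163 at 13.3, 8.23, 14.6 and 15.5 against 20.9, 30.9, 29.9 and 27.9 CPM (1.07 ± 0.17 (SE), adjusted p = 0.000216), and the lysosomal marker Cd68 at 6.65, 6.35, 6.73 and 7.75 against 10.5, 11.4, 12.97 and 17.5 CPM (0.93 ± 0.22 (SE), adjusted p = 0.0084). For all 3 each MI heart exceeded each Sham heart. The order of the MI rats differed between genes, with rat 57 first for Mrc1 and rat 89 first for Cd68. Lyve1 and C1qb changed by 1.21 ± 0.20 and 1.26 ± 0.21. Adgre1, the F4/80 antigen, and Ccr2, the receptor of recruited monocytes, were not called (0.37 ± 0.22 and 0.55 ± 0.30), and their groups overlapped. The summed level of the 12 macrophage markers was 137 to 173 CPM in Sham and 273 to 435 CPM in MI hearts.

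Complement genes rose in 11 of 20 cases (median 0.56). C4a and C4b code for near-identical proteins, so reads may have been split between them. C4a read 11.8, 15.7, 19.5 and 15.9 CPM in Sham and 140.1, 47.4, 111 and 158 CPM in MI, with rat 57 lowest, and C4b read 8.91, 9.38, 10.1 and 12.9 against 73.1, 22.4, 51.9 and 78.2 CPM in the same order of MI rats (2.88 ± 0.32 (SE), adjusted p = 6.51e-06 for C4a and 2.47 ± 0.31 (SE), adjusted p = 2.51e-05 for C4b). The classical pathway protease C1s changed by 0.61 ± 0.11. Clu and Cd59, which hold the terminal pathway in check, were not called (0.08 ± 0.10 and -0.07 ± 0.08).

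Chemokines, cytokines and their receptors rose in 12 of 39 cases. Osteopontin, Spp1, ranged widely between MI rats, at 2.51, 3.17, 1.85 and 3.22 CPM in Sham and 19.7, 8.62, 23.7 and 61.2 CPM in MI (3.41 ± 0.63 (SE), adjusted p = 0.00115). Rat 57 was lowest and rat 89 highest of the MI animals, but none overlapped with Sham. The receptor Il1r1 read 45.2, 43.2, 39.2 and 35.4 against 59.0, 73.7, 77.0 and 66.9 CPM (0.76 ± 0.11 (SE), adjusted p = 0.000112) and Osmr changed by 0.64 ± 0.10. Cxcl12, a homing signal for progenitor cells, was not called (-0.17 ± 0.12, adjusted p = 0.417).

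Of 19 antigen presentation genes only the protease Ctss was called (5.26%, against 11.4% of all genes), at 10.4, 10.2, 13.3 and 11.0 CPM in Sham and 19.4, 17.2, 31.2 and 27.0 in MI (1.10 ± 0.20 (SE), adjusted p = 0.000893). The class I subunit B2m and the invariant chain Cd74 differed by -0.10 ± 0.09 and -0.05 ± 0.10 with overlapping groups. None of 25 interferon response genes was called by edgeR or DESeq2 (median -0.10, 1 at an unadjusted p under 0.05, higher in MI), and 1 was called without Sham rat 12 or MI rat 36. Irf7 read 31.1, 35.4, 19.0 and 22.5 CPM in Sham and 30.8, 12.1, 21.3 and 24.8 CPM in MI, with rat 57 at less than any other animal. None of 19 lymphocyte, mast cell and granulocyte markers was called by either tool (1 at an unadjusted p under 0.05), and most had few reads. The 9 lymphocyte markers summed to 6.49 to 8.82 CPM in Sham and 6.74 to 12.7 CPM in MI.

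Contractile genes moved mostly downward. In the 6 lists, 56 of 145 genes fell (38.6%, against 5.53% of all genes) and 10 rose (6.90%), with a median of -0.28. Of the 11 cardiomyocyte markers, all of which but Ckm are themselves in these 6 lists, 10 fell, with a median of -0.43 and a mean log2 difference of -0.47, -0.44, -0.57 and -0.55 in MI rats 36, 57, 61 and 89. The part of this shift in the falls of contractile and metabolic genes was not tested.

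In the thick filament and M-band list 12 of 19 genes fell. Myh6, the fast myosin heavy chain, read 5973, 4708, 6184 and 6589.6 CPM in Sham and 2651, 2429, 2857 and 3148 CPM in MI (-1.08 ± 0.11 (SE), adjusted p = 1.98e-06), so the lowest Sham heart, rat 17, still lay well above the highest MI heart. Myh7, the slow chain and the only gene of this list called higher by edgeR, read 1341, 3691, 1978 and 2048 CPM against 4243, 4192, 2702 and 3434 CPM, and here rat 17 overlapped the MI range (0.69 ± 0.21 (SE), adjusted p = 0.035). Myh7 was not called by DESeq2 (adjusted p = 0.110), and the edgeR call was lost without any 1 of MI rats 36, 57 and 89 or Sham rats 12, 32 and 38 (adjusted p from 0.0536 to 0.112). As a share of the reads of both genes, Myh7 took 18.3%, 43.9%, 24.2% and 23.7% in the Sham hearts and 61.5%, 63.3%, 48.6% and 52.2% in the MI hearts. The means were 27.6% ± 11.2 (SD, n = 4) and 56.4% ± 7.14 (SD, n = 4), a difference of 28.9 points without overlap (exact permutation p = 0.0286, two-sided, the smallest possible). The coding sequences of the pair are alike, so some reads may be assigned to the wrong partner. Myom3, an M-band protein, fell furthest of the sarcomere genes, from 8.53, 8.23, 7.74 and 6.56 to 2.19, 1.41, 2.91 and 1.14 CPM (-2.001 ± 0.27 (SE), adjusted p = 6.11e-05). The ventricular light chain Myl3 changed by -0.56 ± 0.08, while the M-band protein Myom2 was not called (-0.23 ± 0.13).

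In the thin filament 6 of 19 genes fell and 3 rose. Tnni3, the inhibitory troponin of heart muscle, was at 867, 685, 702 and 807 CPM in Sham and 501, 486, 436 and 503 in MI (-0.67 ± 0.10 (SE), adjusted p = 0.000238). Tpm1, the main cardiac tropomyosin, was at 1048, 1056, 1015 and 1072 CPM against 748, 750.1, 740.5 and 729 CPM, and its 4 MI hearts differed from each other by far less than from Sham (-0.50 ± 0.07 (SE), adjusted p = 0.000123). The 3 that rose were Tpm3 (0.49 ± 0.11), Tpm2 (0.66 ± 0.16) and Tnnt3 (0.75 ± 0.18), tropomyosin and troponin genes best known from other muscles. Cardiac actin, Actc1, was not called, with 3019, 3535, 3928 and 4143 CPM in Sham and 2996, 3585, 3189 and 2715 CPM in MI (-0.23 ± 0.10, adjusted p = 0.167). The Z-disc and stretch list held 7 falls and 2 rises among 25 genes. Actn2, the alpha-actinin of the Z-disc, changed by -0.43 ± 0.08, Fhl2 by -0.56 ± 0.10 and Cmya5 by -0.49 ± 0.09, and the rises were Ankrd23 (1.04 ± 0.23) and Xirp2 (0.53 ± 0.14), the latter no longer called without MI rat 57, Sham rat 12 or Sham rat 17 (adjusted p up to 0.0776).

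Calcium cycling genes fell in 7 of 25 cases and rose in 2. Atp2a2, the pump that refills the sarcoplasmic reticulum, read 3903, 4219, 4058 and 4193 CPM in Sham and 3106, 2940.5, 2656 and 2985 CPM in MI (-0.49 ± 0.09 (SE), adjusted p = 0.000694). Ryr2, the release channel, read 2398, 2341, 2493 and 2528 against 1969, 1973, 1721 and 1673 CPM (-0.41 ± 0.09 (SE), adjusted p = 0.00275). Both genes were lower in every MI heart than in any Sham heart. Hrc and Trdn, which shape calcium release at the same membrane, changed by -0.69 ± 0.10 and -0.51 ± 0.10, whereas the calcium buffer Casq2 (-0.24 ± 0.08, adjusted p = 0.0649) was not called. The 2 that rose, Itpr1 and Atp2b4, changed by 0.30 and 0.30, and these small rises were called in 4 and 1 of the 8 fits with 1 rat left out, that of Itpr1 without Sham rat 12 or MI rats 36, 57 or 89 and that of Atp2b4 without MI rat 57.

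Ion channel genes fell in 15 of 34 cases, 9 without Sham rat 32 or 38. Scn4b, a beta subunit of the sodium channel, stood at 104, 104, 96.3 and 111 CPM in Sham and 65.6, 54.9, 57.4 and 61.9 in MI (-0.79 ± 0.10 (SE), adjusted p = 3.57e-05), and Kcnj3, a subunit of the acetylcholine-gated potassium channel, at 83.9, 89.3, 86.5 and 79.6 against 44.5, 47.4, 52.1 and 48.0 (-0.82 ± 0.12 (SE), adjusted p = 8.77e-05). The exceptions among the channels were Cacna1g, a T-type calcium channel, which rose from 8.65, 10.2, 14.8 and 14.8 to 24.0, 30.7, 27.0 and 21.8 CPM (1.09 ± 0.18 (SE), adjusted p = 0.000461), and the potassium channel modifier Kcnv2 (1.29 ± 0.26). At the sarcolemma and intercalated disc 10 of 24 genes fell and none rose, and all 24 had a log2 fold change below 0 in edgeR. The sarcoglycans Sgca, Sgcb and Sgcd changed by -0.64, -0.50 and -0.56, while the dystroglycan Dag1 (-0.09 ± 0.07) and vinculin, Vcl (-0.17 ± 0.08), were not called.

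**Figure D4:**
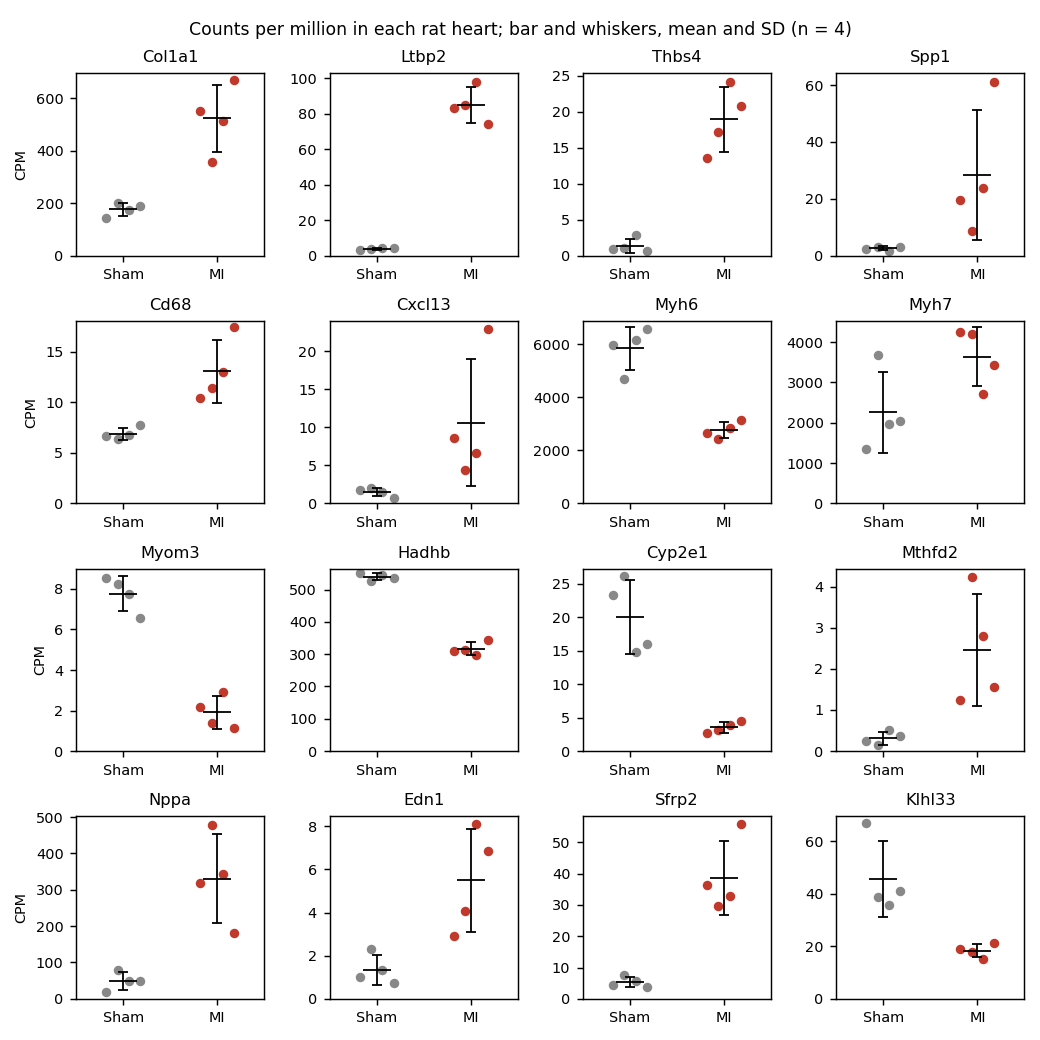
CPM of 16 genes in each Sham heart (grey) and MI heart (red), on linear axes from 0, with a bar at the mean and whiskers of 1 SD (n = 4 per group). The groups are apart for all genes shown except Myh7, where a Sham heart lies within the MI range.

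Promoter sequences of 5 genes on which these results turn are shown for orientation. They are RefSeq windows on the GRCr8 assembly of 250 bases before and 50 after the annotated start, written 5′ to 3′ on the gene's strand, whereas the reads had been aligned to another assembly. Capitals mark the letters TATAAA (for the TATA box, forward strand) and GGAATG or its reverse complement CATTCC (the MCAT element bound by TEAD factors), which do not overlap each other.
Thbs4, chr2:25760296-25760595, strand -: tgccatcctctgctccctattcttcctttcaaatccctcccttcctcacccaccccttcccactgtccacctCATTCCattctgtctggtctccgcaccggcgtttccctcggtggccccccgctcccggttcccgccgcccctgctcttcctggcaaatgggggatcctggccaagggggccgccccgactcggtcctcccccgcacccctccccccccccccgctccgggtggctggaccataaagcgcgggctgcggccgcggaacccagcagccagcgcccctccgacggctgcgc
Nppa, chr5:163711934-163712233, strand +: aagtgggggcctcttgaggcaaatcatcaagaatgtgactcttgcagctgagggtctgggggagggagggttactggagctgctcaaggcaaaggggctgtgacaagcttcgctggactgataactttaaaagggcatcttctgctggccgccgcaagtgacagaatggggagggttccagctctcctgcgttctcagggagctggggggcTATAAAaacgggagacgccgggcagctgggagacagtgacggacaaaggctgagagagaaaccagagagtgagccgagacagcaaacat
Myh6, chr15:32411648-32411947, strand -: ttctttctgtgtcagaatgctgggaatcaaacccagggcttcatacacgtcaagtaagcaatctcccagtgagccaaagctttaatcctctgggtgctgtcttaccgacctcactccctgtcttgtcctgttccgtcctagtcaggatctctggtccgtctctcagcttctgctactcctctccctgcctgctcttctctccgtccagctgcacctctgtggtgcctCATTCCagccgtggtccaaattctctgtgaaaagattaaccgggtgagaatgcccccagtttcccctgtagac
Hadha, chr6:31907551-31907850, strand +: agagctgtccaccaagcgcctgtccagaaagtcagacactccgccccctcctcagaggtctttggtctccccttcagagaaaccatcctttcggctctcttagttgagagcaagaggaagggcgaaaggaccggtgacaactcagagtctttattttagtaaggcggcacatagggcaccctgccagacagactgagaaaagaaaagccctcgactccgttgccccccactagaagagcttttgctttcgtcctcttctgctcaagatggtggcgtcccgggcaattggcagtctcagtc
Cyp2e1, chr1:205269717-205270016, strand +: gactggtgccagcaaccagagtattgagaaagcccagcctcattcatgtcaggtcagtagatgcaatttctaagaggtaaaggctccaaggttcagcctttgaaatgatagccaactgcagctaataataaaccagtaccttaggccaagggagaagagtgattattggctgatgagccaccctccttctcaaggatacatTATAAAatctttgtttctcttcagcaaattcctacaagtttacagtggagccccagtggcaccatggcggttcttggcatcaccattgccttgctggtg

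Thbs4 and Nppa are shown for the rises, Myh6, Hadha and Cyp2e1 for the falls. An MCAT element lay 178 bases before the start in Thbs4 and 23 before it in Myh6, and a TATA box 39 bases before it in Nppa and 49 in Cyp2e1. The Hadha window held neither. It shares 200 bases with the window of Hadhb, which runs the other way from a start 301 bases off, and both genes fell by nearly the same amount. Of all 27457 promoters of this length, 13.9% held the MCAT letters and 9.08% the TATA letters, and among the 11242 promoters matched to genes tested 11.3% and 4.77% did. The MCAT letters occurred in 10 of 42 contractile genes that fell (23.8%, Ttn, Tpm1 and Myl3 among them) and in 21 of 104 contractile genes tested (20.2%), in 12 of 63 matrix genes that rose (19.0%) and in 28 of 134 matrix genes tested (20.9%). Of 5 further motifs searched on both strands, TGTGGT (for RUNX factors) occurred in 16.9% of all promoters, AGATAA (for GATA factors) in 11.3%, CACGTG (the E-box) in 6.65%, TGACTCA (for AP-1) in 4.53% and TNAAGGTCA (for ERR receptors) in 1.15%. The ERR letters were in 0.747% of the promoters matched to genes tested. None of the 25 matched fatty acid genes that fell held them, but at this share so small a set cannot show a lack. These matches only describe the letters in the window.

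Of the 5 programmes, metabolism had the largest share of falls. Of 197 metabolic genes tested, 37 of them antioxidant and detoxification genes, 108 fell (54.8%, against 5.53% of all genes) and 7 rose (3.55%), with a median of -0.42. Most of these falls were modest in size, with 1 beyond a log2 fold change of -1. Over the fits with 1 rat left out, 91 to 111 metabolic genes were called lower.

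Fatty acid oxidation led the falls, with 30 of 35 genes lower and a median of -0.60. Hadhb and Hadha, the subunits of the mitochondrial trifunctional protein, read 552, 525, 546 and 537 CPM in Sham and 310.3, 313, 297 and 344 CPM in MI for the former (-0.77 ± 0.08 (SE), adjusted p = 4.79e-06) and 208, 196, 201 and 216 against 121, 119.8, 122 and 133 CPM for the latter (-0.73 ± 0.08 (SE), adjusted p = 8.47e-06). In both the distance between the groups was several times the spread within them. The carnitine shuttle fell at each step measured: Cpt1b at the outer membrane changed by -0.57 ± 0.08, Slc25a20 by -0.57 ± 0.08 and Cpt2 by -0.75 ± 0.09. The long-chain transporter Slc27a1 lay at 85.9, 91.2, 97.8 and 93.0 CPM in Sham and 55.6, 46.9, 42.3 and 58.7 in MI (-0.85 ± 0.10 (SE), adjusted p = 1.21e-05). Its relative Slc27a6 was called higher by edgeR and not by DESeq2, with no read in any Sham library and 6, 1, 2 and 6 reads in the MI libraries, at least 3.15-fold higher than the Sham floor. Fabp4, a fatty acid carrier of capillary endothelium and fat, was not called (-0.28 ± 0.11, adjusted p = 0.124). The mean log2 difference of the list from the Sham mean was -0.48, -0.53, -0.57 and -0.39 in rats 36, 57, 61 and 89, side by side with -0.47, -0.44, -0.57 and -0.55 for the cardiomyocyte markers.

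Pyruvate, citric acid cycle, branched-chain and ketone genes fell in 36 of 43 cases (median -0.47). None was called higher by edgeR or DESeq2, and none was higher at an unadjusted p under 0.05 in edgeR. Idh2, the mitochondrial isocitrate dehydrogenase that uses NADP, read 669, 699.9, 718 and 759 CPM in Sham and 506, 521, 446 and 443 CPM in MI (-0.57 ± 0.08 (SE), adjusted p = 9.48e-05), and Got2 changed by -0.59 ± 0.08. Every MI heart was below every Sham heart for both. Pdk1, a kinase that shuts off pyruvate dehydrogenase, also fell, by 0.64 on the log2 scale, and the related Pdk2 by 0.56. The dehydrogenase subunit Dlat (-0.29 ± 0.10, adjusted p = 0.08) and the phosphatase Pdp1 (-0.34 ± 0.13, adjusted p = 0.106) were not called.

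Glycolysis and glycogen genes fell in 12 of 34 cases, with none higher by either tool or at an unadjusted p under 0.05 in edgeR. Pfkm, the muscle phosphofructokinase, read 134, 149, 147 and 150.4 CPM in Sham and 103, 92.4, 92.6 and 97.8 in MI (-0.59 ± 0.08 (SE), adjusted p = 3.21e-05), and the glycogen phosphorylase Pygm changed by -0.56 ± 0.08. The insulin-regulated glucose transporter Slc2a4 stood at 93.8, 112, 103 and 118 CPM against 76.5, 71.7, 74.7 and 63.3 CPM (-0.58 ± 0.12 (SE), adjusted p = 0.00268). Slc2a1, the basal transporter, read 6.15, 9.09, 6.56 and 7.75 CPM in Sham and 8.33, 5.33, 8.41 and 6.84 CPM in MI and was not called (-0.01 ± 0.22, adjusted p = 0.985), nor were the hexokinase Hk2 (-0.16 ± 0.17) and Ldha (-0.26 ± 0.10). The energy buffer genes fell in 8 of 18 cases. Ckm, muscle creatine kinase, changed by -0.68 ± 0.08, its mitochondrial partner Ckmt2 by -0.63 ± 0.09 and the adenine nucleotide carrier Slc25a4 by -0.51 ± 0.08.

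Regulators of metabolism fell in 11 of 30 cases, 7 without MI rat 61. Ppargc1a, the coactivator of mitochondrial genes, read 48.8, 51.7, 50.2 and 52.5 CPM in Sham and 39.7, 31.7, 30.8 and 36.3 in MI (-0.55 ± 0.11 (SE), adjusted p = 0.00241), the retinoid receptor Rxrg changed by -0.72 ± 0.11 and the muscle regulator Perm1 by -0.48 ± 0.10. These 3 showed no overlap between groups. The exception was Dio2, the deiodinase that makes active thyroid hormone inside cells, with 1.38, 3.90, 1.85 and 2.03 CPM in Sham and 7.02, 7.06, 13.8 and 8.31 in MI (1.99 ± 0.29 (SE), adjusted p = 0.000105). Ppard was not called (-0.16 ± 0.10).

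Of antioxidant and detoxification genes 11 of 37 fell and 5 rose, 7 and 3 without MI rat 61, and 3 rose without Sham rat 32. Cyp2e1, an ethanol-inducible monooxygenase, had the largest fall of all genes named, from 23.3, 26.1, 14.8 and 15.97 to 2.70, 3.14, 3.94 and 4.56 CPM, with every MI rat far below every Sham rat (-2.48 ± 0.29 (SE), adjusted p = 9.51e-06). Mitochondrial peroxiredoxin, Prdx3, changed by -0.53 ± 0.09. The 5 that rose were Cyp1b1 (1.15 ± 0.16), Gsta1 (1.10 ± 0.19), Gpx3 (0.74 ± 0.15), Gpx7 (0.75 ± 0.22) and the extracellular superoxide dismutase Sod3 (0.45 ± 0.12). The call of Gpx7 was lost without Sham rats 12, 17 or 32 or MI rats 36, 61 or 89, and that of Sod3 without Sham rat 32 or MI rat 61 (adjusted p up to 0.0955 and 0.0908). Txnip was not called, and its low MI value of 313 CPM in rat 36 stood apart from the other 3 MI rats at 622 to 675.

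Outside the lists, the largest falls included Klhl33, a kelch-domain protein, at 67.0, 38.7, 35.7 and 41.2 CPM in Sham and 18.9, 17.7, 15.2 and 21.1 CPM in MI, and the membrane protein Ano5, at 83.9, 75.3, 71.7 and 64.1 against 36.7, 36.4, 36.4 and 36.7 CPM (-1.01 ± 0.14 (SE), adjusted p = 7.88e-05). The 4 MI values of Ano5 were nearly equal. Ky, a muscle peptidase, changed by -1.07 ± 0.15, the RNA-binding protein Khdrbs3 by -1.01 ± 0.18 and the sodium-chloride cotransporter Slc12a3 by -1.14 ± 0.29. All had MI rats below Sham rats without overlap.

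Signalling genes moved in both directions, with 47 of 213 higher (22.1%, against 5.82% of all genes), 21 lower (9.86%, against 5.53%) and a median of 0.23. The count of falls was 13 without MI rat 89 and 12 without Sham rat 38. In the natriuretic and neurohormonal list 3 of 23 genes rose, 6 without MI rat 36, and 2 fell. Nppa, atrial natriuretic peptide, lay at 18.3, 80.1, 49.8 and 49.4 CPM in Sham and 318, 479, 344 and 181 CPM in MI, with every MI rat above every Sham rat (2.74 ± 0.31 (SE), adjusted p = 7.94e-06). Atrial markers were checked beside it: 2 of 9 rose, Nppa and Dkk3, 2 fell, Kcnj3 and, in 2 of the 8 fits with 1 rat left out, Stard10, and the defining atrial genes Myl7, Myl4, Sln and Bmp10 were not called. Of the 9 markers, 6 had a log2 fold change above 0 and 3 below it, with a median of 0.57. At an unadjusted p under 0.05 in edgeR, 4 were higher and 2 lower. The summed level of all 9 markers, Nppa included, was 190.4 to 264 CPM in Sham and 366 to 682 CPM in MI. Nppb, brain natriuretic peptide, was not called: it read 100.3, 239.6, 223 and 216 CPM in Sham and 203, 365, 186 and 175 in MI (0.25 ± 0.23, adjusted p = 0.562), and the stress genes Acta1 (0.58 ± 0.28) and Ankrd1 (0.35 ± 0.18) were not called either. Rat 12 was the lowest Sham animal in Nppa, Nppb, Acta1 and Ankrd1, and rat 57 the highest MI animal in all 4.

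Edn1, the vasoconstrictor endothelin, rose from 1.00, 2.31, 1.35 and 0.715 to 2.92, 4.08, 8.09 and 6.84 CPM without overlap (2.06 ± 0.42 (SE), adjusted p = 0.00262). The angiotensin receptor Agtr1a read 1.38, 2.16, 1.85 and 3.22 CPM in Sham and 5.92, 2.67, 4.98 and 9.21 in MI and was called (1.43 ± 0.38 (SE), adjusted p = 0.0158), but rat 57 lay within the Sham range, and the call was lost without MI rat 89, Sham rat 12 or Sham rat 32 (adjusted p = 0.0787, 0.0630 and 0.0515). Ace, the angiotensin converting enzyme, was not called (0.46 ± 0.16, adjusted p = 0.0761). Mme, neprilysin, which degrades natriuretic peptides, fell by 1.01 on the log2 scale, and Nr3c2, the mineralocorticoid receptor, by 0.34. The call of Mme was lost without Sham rats 12, 17 or 38 or MI rats 36 or 89 (adjusted p up to 0.140), and that of Nr3c2 without Sham rats 17 or 38 or MI rats 57 or 89 (up to 0.0694).

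In the adrenergic and cyclic nucleotide list 9 of 29 genes fell, 5 without Sham rat 38, and 3 rose. Adrb1, the main adrenergic receptor of cardiomyocytes, read 17.2, 11.5, 10.8 and 14.3 CPM in Sham and 10.0, 7.37, 9.13 and 10.1 CPM in MI (-0.55 ± 0.16 (SE), adjusted p = 0.0251), and the call was lost without MI rats 57 or 61 or Sham rats 12 or 38 (adjusted p from 0.0609 to 0.113). The muscarinic receptor Chrm2, the kinase subunit Prkaca and the phosphodiesterase Pde3a changed by -0.45 ± 0.10, -0.40 ± 0.08 and -0.42 ± 0.08, each without overlap. Adcy7, an adenylyl cyclase of non-muscle cells, rose from 5.64, 6.78, 7.57 and 8.70 to 20.0, 25.7, 19.9 and 27.3 CPM (1.69 ± 0.18 (SE), adjusted p = 3.57e-06). The G protein subunits Gnas and Gnai2 were not called (-0.15 ± 0.08 and 0.17 ± 0.09).

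TGF-beta family signalling rose in 15 of 41 cases, with none lower by edgeR or DESeq2 (2 at an unadjusted p under 0.05) and a median of 0.46. Among the ligands, Tgfb2 read 16.9, 32.2, 28.8 and 29.4 CPM in Sham and 58.8, 105, 55.0 and 49.3 CPM in MI, highest in rat 57 (1.31 ± 0.21 (SE), adjusted p = 0.000398), and Tgfb3 read 26.6, 34.8, 33.2 and 31.1 against 58.8, 51.6, 66.6 and 73.6 CPM (1.00 ± 0.12 (SE), adjusted p = 1.11e-05). Neither had overlapping groups. Tgfb1 changed less, from 14.3, 18.3, 17.5 and 19.7 to 21.8, 19.6, 25.5 and 25.3 CPM, with rat 57 within the Sham range (0.41 ± 0.12 (SE), adjusted p = 0.034). Its call was lost without MI rats 61 or 89 or Sham rats 12, 17 or 32 (adjusted p from 0.0534 to 0.115). Of the secreted binding proteins, Fstl1 changed by 1.41 ± 0.13 and the BMP antagonist Nbl1 by 1.10 ± 0.18. The receptors Eng (0.22 ± 0.09) and Tgfbr2 (0.31 ± 0.11) were not called. Gdf15, a secreted stress marker, gave 3 reads, all in rat 57, over the MI and 2 over the Sham libraries, so a change was not detectable at this depth.

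Wnt pathway genes rose in 8 of 31 cases, 5 without MI rat 89, led by secreted inhibitors and receptors. Sfrp2, a Wnt-binding secreted frizzled-related protein, read 4.39, 7.50, 5.55 and 3.70 CPM in Sham and 36.3, 29.6, 32.9 and 55.8 CPM in MI (2.90 ± 0.21 (SE), adjusted p = 3.21e-08), and Sfrp1 changed by 1.47 ± 0.22. The receptor Fzd2 changed by 1.52 ± 0.22 and Dkk3 by 0.52 ± 0.10. For all 4 every MI value exceeded every Sham value. The ligand Wnt5a was the only gene of the list that fell (-0.55 ± 0.15, no longer called without Sham rat 12 or MI rat 36), and the coreceptors Lrp5 and Lrp6 were not called (-0.21 ± 0.09 and 0.26 ± 0.09).

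In the growth factor list 10 of 46 genes rose and 5 fell. Igf1 read 73.0, 77.2, 83.0 and 86.5 CPM in Sham and 182, 124, 203 and 279 CPM in MI, with rat 57 lowest and rat 89 highest (1.31 ± 0.20 (SE), adjusted p = 0.000223), and Nrg1, neuregulin, read 5.64, 10.2, 3.70 and 5.36 against 15.7, 12.7, 22.6 and 27.2 CPM (1.66 ± 0.32 (SE), adjusted p = 0.00158). Erbb4, the neuregulin receptor of cardiomyocytes, went in the opposite direction, from 11.2, 8.51, 9.26 and 9.42 to 5.56, 6.74, 4.05 and 5.05 CPM (-0.86 ± 0.18 (SE), adjusted p = 0.00274). The other genes that fell were Kdr (-0.50), Angpt1 (-0.47), Fgf13 (-0.49) and Vegfb (-0.33), the last no longer called without MI rats 36 or 89 or Sham rats 32 or 38 (adjusted p up to 0.0952). Vegfa was not called (-0.33 ± 0.13, adjusted p = 0.104). Pdgfrb, a receptor of pericytes and fibroblasts, changed by 0.78 ± 0.10 and the binding protein Igfbp7 by 0.85 ± 0.13. Among hypertrophy regulators and transcription factors 8 of 43 rose, which included the fibroblast factors Prrx1 (1.09 ± 0.18) and Meox1 (1.72 ± 0.39), and 4 fell, 2 without Sham rats 32 or 38 or MI rats 61 or 89. The calcineurin target Rcan1 was not called (0.14 ± 0.16), with rat 57 highest at 395 CPM.

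Of 39 heat shock and unfolded protein genes 2 rose and 2 fell (10.3% called, near the 11.4% of all genes). The mitochondrial chaperones Hspa9 and Hspd1 changed by -0.53 ± 0.09 and -0.53 ± 0.11. Mthfd2, a mitochondrial folate enzyme, rose from 0.251, 0.144, 0.505 and 0.358 to 1.24, 4.23, 2.80 and 1.55 CPM (2.87 ± 0.60 (SE), adjusted p = 0.00301), on few reads in Sham, and the secretory stress factor Creb3l2 changed by 0.45 ± 0.09. The abundant small heat shock genes Hspb6 and Hspb7 were not called (-0.12 ± 0.10 and 0.02 ± 0.10). In the cell cycle list only Ccnd1 of 30 genes (3.33%, against 11.4% of all genes) was called (0.47 ± 0.14 (SE), adjusted p = 0.0312), and with 1 rat left out it was called only without MI rat 57 or Sham rat 32 (adjusted p otherwise up to 0.110). At an unadjusted p under 0.05 in edgeR, 8 genes of this list were higher and 0 lower. Its count of rises was 2 without MI rat 57 and 0 without Sham rats 12 or 38 or MI rat 61. Of immediate early and clock genes 6 of 38 rose (15.8%, against 5.82% of all genes), 3 without Sham rat 38 or MI rat 61, among them Egr1 at 31.2, 26.1, 24.4 and 23.6 CPM in Sham and 45.9, 42.8, 90.9 and 36.3 in MI (1.03 ± 0.20 (SE), adjusted p = 0.00197) and Myc at 3.89, 2.598, 5.39 and 3.22 against 5.77, 19.3, 11.2 and 8.23 CPM (1.52 ± 0.32 (SE), adjusted p = 0.00314), the first led by rat 61 and the second by rat 57. Clock itself differed by 0.01 ± 0.09. None of 52 cytosolic ribosomal protein genes was called by edgeR or DESeq2 (1 at an unadjusted p under 0.05, and 1 called higher without MI rat 57), with a median of 0.00, whereas 11.4% of all genes were.

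Markers of the other cell types of the heart give the frame for these lists. Fibroblast markers rose in 9 of 12 cases, and their summed level was 1694 to 2131 CPM in Sham and 2906 to 4479 CPM in MI. Markers of activated fibroblasts rose in 9 of 12 cases with a median of 2.37, at a summed 47.2 to 61.8 against 194 to 256 CPM. Several of these genes also belong to the matrix lists. Of 11 endothelial markers only Kdr was called, lower in MI (9.09%, against 11.4% of all genes). Their sums of 1208 to 1341 CPM in Sham and 1137 to 1278 CPM in MI overlapped. Endocardial and lymphatic markers rose in 5 of 9 cases, 3 without Sham rats 17 or 38 or MI rat 36, with the lymphatic factor Prox1 lower, and Schwann cell markers in 3 of 9. In smooth muscle and pericytes, whose markers summed to 1604 to 1705 CPM in Sham and 1488 to 1654 in MI, 1 of 13 fell (none without Sham rats 32 or 38 or MI rats 61 or 89) and 4 rose, 1 to 6 over the fits with 1 rat left out, Acta2 among them with 32.5, 33.2, 40.1 and 39.9 CPM in Sham and 73.4, 32.3, 58.2 and 49.1 CPM in MI. Rat 57 lay below every Sham rat for Acta2, and the call (0.56 ± 0.17 (SE), adjusted p = 0.0346) was lost without any 1 Sham rat or MI rats 36 or 61 (adjusted p up to 0.150). None of the mast cell, adipocyte, mesothelial or red blood cell markers was called by edgeR or DESeq2. At an unadjusted p under 0.05 there were 0 of 8, 2 of 5, 1 of 5 and 0 of 4 of them. With 1 rat left out, 1 adipocyte marker was called lower and 1 mesothelial marker higher without Sham rat 17, and 1 red blood cell marker lower without MI rat 36.

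**Figure D5:**
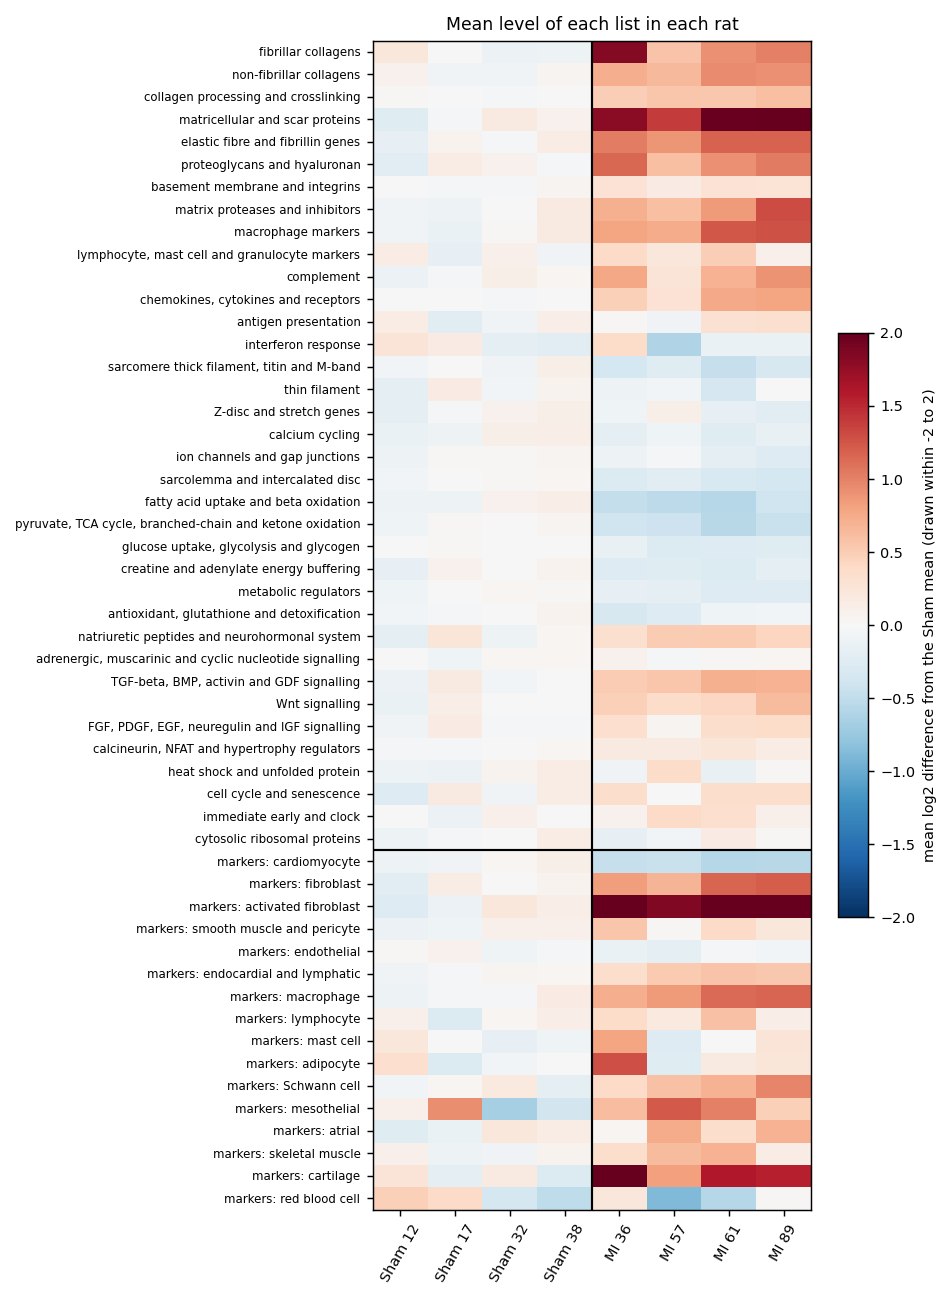
Mean log2 difference from the Sham mean for the 36 gene lists and 16 cell type marker lists (rows) in each Sham and MI heart (columns), red above and blue below the Sham mean. Matrix, macrophage and fibroblast rows are red in all 4 MI hearts and energy and cardiomyocyte rows blue in all 4, while cartilage and adipocyte markers stand out in MI rat 36.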

How the data were processed

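RNA from sections of 1 left ventricle block per rat was sequenced, and the deposited table holds raw read counts per gene for 12 rats. Per the submitters' processing notes, the authors used STAR 2.6.1c, HTSeq and MultiQC 1.8 with the rat build mRatBN7.2. Libraries were strand-specific and made after depletion of ribosomal RNA, per the extraction protocol and the study's methods, although a label field reads polyA RNA. The strand setting of the counting is not given in the sources used here, so reads of overlapping and antisense genes cannot be told apart. The 5 summary lines of the counter, which held 51.7% to 56.7% of all entries of the table, unaligned and multiply aligned reads included, in the Sham and MI libraries, were left out of library sizes and tests. One rat of the urolithin A arm, rat 66, is grouped differently by the sample labels and by a table of the study. The label was followed, and the rat enters the estimate of spread alone.

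Genes with at least 10 counts over the 12 rats were tested with edgeR 4.0.16 (R 4.3.3) by its quasi-likelihood test, with TMM normalization, the 3 groups in one fit, Benjamini-Hochberg adjustment and a threshold of 0.05. CPM and log2 CPM values use the normalized library sizes, with a prior count of 1 for log2 CPM. Log2 fold changes are those of the quasi-likelihood fit, to which this prior was not given. SEs were derived from the F statistic. The rats are separate animals. Each edgeR p-value sets the difference between groups against the spread between animals, estimated over all 3 groups with information shared across genes. DESeq2 1.42.0, other filters and scalings, the 8 rats alone and fits with 1 rat left out served as alternatives. Single values were compared by exact permutation over the 70 groupings of the rats. The steps were tested on simulated data of 17855 genes for MI versus Sham. Changes of 0.5, 1 and 2 on the log2 scale were given to 68, 66 and 66 genes of average log2 CPM of at least 1. They were called for 33.8%, 81.8% and 100% of these genes, and 6 of 17655 unchanged genes were called. The changed genes were a smaller share than the 11.4% called in the data, and none was of low level, so these percentages need not hold here.

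The comparison and the gene lists were chosen with earlier results of these data known. Of the symbols in the lists, 60 of 1121 were not matched in the table and have no value here, phospholamban (Pln) among them. Genes named were the 15 largest rises and falls among called genes without overlap whose average log2 CPM was 1 or more, up to 4 called genes of smallest adjusted p and up to 2 uncalled genes of highest level in each list, and a fixed set of remodelling genes. Other genes in the text were chosen after their values were seen. A group without reads was given a floor of 3 counts over the group, which covers counting error only. Promoters and gene symbols were matched through RefSeq tables. Columns of the authors' own comparisons were not used. Some genes that the rule picks are not reported here.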

Additional observations from a re-analysis of the deposited data

Results flagged for a closer look

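In 8 of 146 groups of 4 rats, 1 rat stood far from the other 3 of its group by Dixon's ratio of the gap to the range (beyond its 95% critical value), where chance gives about 1 in 20, or 7. Of the 8, 4 were MI rat 57 and 3 were Sham rat 12. MI rat 57 was highest of its group for Acta1 (ratio 0.887) and for Gdf15 (1), the last on 3 reads, and lowest in the mean of the growth factor list (0.887) and of the cell cycle and senescence list (0.981). Its library was the shallowest of the MI group, at 6829591 reads on genes, and had the highest share of mitochondrially encoded reads of that group, 57.6%. The part of depth in these values was not tested. Sham rat 12 was lowest of its group for Nppb (0.882), Ankrd1 (0.835) and Col3a1 (0.83). Sham rat 17 was highest in the mean of the growth factor list (0.85).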

How the results depend on the processing

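Over 15 alternative settings the number of genes higher in MI ran from 777 to 1155 and of genes lower from 690 to 1138, all within 1.5 times of the 1058 and 1006 reported. DESeq2 called 1062 higher and 1122 lower, of which 998 and 997 were also called by edgeR, and gave no adjusted p for 3882 genes. The median over all genes stayed between 0.01 and 0.03. With 1 rat left out, matrix genes lower in MI numbered 3 to 5, immune genes lower 0 to 1 and signalling genes lower 12 to 23, and the cause was not tested. The other counts of the 5 programmes moved by less than 1.5 times. Of 229 genes named by rule, none changed sign under any setting, 140 of the 152 called were called under each setting that gave a value, 12 lost the call under at least 1, and 26 that were not called became so under at least 1. No paired analysis was possible because each rat belongs to a single group and the groups share no rat number. With 4 rats a group an exact test of a single value cannot go below p = 0.0286. On simulated data, with fewer changed genes than were called here, only 33.8% of changes of 0.5 on the log2 scale were called. That share need not hold for these data, but an uncalled gene may differ by that much.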
